A study of Mus musculus with 6 samples.

Results

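The ADAM, ADAMTS and ADAMTS-like proteins, the matrix metalloproteases (MMPs) and the tissue inhibitors of metalloproteases (TIMPs) were described in glomeruli isolated from mouse kidney, the capillary tufts that filter the blood. Members were the protein-coding mouse genes whose symbols begin with Adam, Adamts, Adamtsl or Mmp followed by a digit, together with Timp1 to Timp4. Of 83 such genes among 54838 gene identifiers, 50 had at least 10 raw counts in 3 or more libraries and were kept. They comprised 15 of 33 Adam, 15 of 19 Adamts, 5 of 5 Adamtsl, 11 of 22 Mmp and 4 of 4 Timp genes.

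RNA was sequenced from glomeruli of 3-week-old mice in 6 libraries. The mice labelled KO 146, 147 and 148 have the genotype bPIX -/-, described in the series as a loss in podocytes alone, and those labelled CTRL 157, 162 and 163 are wild type. The Arhgef7 gene encodes bPIX, which activates the GTPases Cdc42 and Rac1, and podocytes form the outer, epithelial layer of the filter. What drives the deletion, and the strain, remain not given in the sources used here.

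Metalloproteases of these families carry a zinc ion in their catalytic site. ADAMs sit in the cell membrane and mostly release the outer parts of other membrane proteins, ADAMTS proteases are secreted and cut proteoglycans, procollagens and other matrix proteins, and ADAMTS-like proteins have the ancillary domains of ADAMTS without the protease. MMPs cut collagens, other matrix proteins and growth factors, and TIMPs occupy the catalytic site of MMPs and of some ADAM and ADAMTS proteases. In the glomerulus these proteins act on the basement membrane and the mesangial matrix.

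The files deposited under the KO labels are named for CTRL animals and the reverse, so the labels alone set the groups, and if they are wrong every sign given here turns. The targeted gene does not settle this. Arhgef7 had 132.8, 89.6 and 85.9 CPM (counts scaled to the TMM-normalised library size) in KO 146, 147 and 148, and 91.9, 94.1 and 88.4 CPM in CTRL 157, 162 and 163. The log2 fold change of KO over CTRL libraries was 0.17 (SE 0.17, edgeR adjusted p = 0.544). Gene counts ranged from 39841396 to 51917945 per library. The libraries also held tubule RNA, and the marker lists of glomerular and tubular cells separated the groups. The mean log2 CPM of 20 podocyte markers was 8.14, 6.92 and 6.42 in KO 146, 147 and 148, and 5.31 to 5.60 in the CTRL libraries. That of 15 endothelial markers was 7.68, 6.54 and 5.93 in the KO libraries against 5.17 to 5.31 in the CTRL libraries, and that of 14 mesangial and smooth muscle markers 6.69, 5.20 and 4.75 in the KO libraries against 4.02 to 4.06 in the CTRL libraries. The 20 proximal tubule markers ran the other way, at 8.56, 9.10 and 9.28 in the KO libraries and 9.55 to 9.64 in the CTRL libraries. Their part in the results below was not tested beyond the fits with a marker covariate. In bulk samples fewer cells of a type and less RNA per cell cannot be told apart.

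The bases before the start site are shown for 4 members whose levels are described below. They are Adamts17, which had the largest difference, Mmp14, the activator of Mmp2, Adamtsl5, which led its family, and Adam17, a widely expressed sheddase. Each is the 250 bases before the RefSeq start, read 5′ to 3′ on the gene's own strand, from GRCm38.p6, and outside the GENCODE gene. They lie at chr7:66839485-66839734 (plus strand), chr14:54431348-54431597 (plus), chr10:80348449-80348698 (minus) and chr12:21373633-21373882 (minus). Capitals mark the GC box, GGGCGG or its reverse CCGCCC, the site of Sp1-type factors.
Adamts17: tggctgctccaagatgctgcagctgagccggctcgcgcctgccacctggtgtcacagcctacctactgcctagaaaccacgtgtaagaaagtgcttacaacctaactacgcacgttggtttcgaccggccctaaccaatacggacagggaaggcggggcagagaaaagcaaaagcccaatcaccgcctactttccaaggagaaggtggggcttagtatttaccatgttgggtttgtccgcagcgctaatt
Mmp14: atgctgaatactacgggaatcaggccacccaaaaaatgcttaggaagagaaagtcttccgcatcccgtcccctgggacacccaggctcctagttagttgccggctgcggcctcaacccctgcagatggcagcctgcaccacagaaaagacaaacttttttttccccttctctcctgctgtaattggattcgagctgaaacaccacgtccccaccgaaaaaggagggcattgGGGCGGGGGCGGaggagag
Adamtsl5: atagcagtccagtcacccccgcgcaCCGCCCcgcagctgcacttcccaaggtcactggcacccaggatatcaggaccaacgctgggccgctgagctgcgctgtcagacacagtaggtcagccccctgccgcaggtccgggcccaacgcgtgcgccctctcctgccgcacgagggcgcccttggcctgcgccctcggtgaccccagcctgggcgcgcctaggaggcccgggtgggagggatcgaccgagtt
Adam17: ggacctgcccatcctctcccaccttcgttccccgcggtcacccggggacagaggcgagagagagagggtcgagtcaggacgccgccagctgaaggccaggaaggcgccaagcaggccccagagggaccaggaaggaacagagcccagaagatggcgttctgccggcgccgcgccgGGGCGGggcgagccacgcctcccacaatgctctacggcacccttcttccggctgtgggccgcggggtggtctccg
Mmp14 holds 2 GC boxes in its last 19 bases, Adam17 and Adamtsl5 hold 1 each farther from the start, and Adamts17 holds none in this window. RefSeq promoters were at hand for 30 of the 50 members, 34 windows in all. Searched on both strands, the GC box was in 20 of the 34 (58.8%) and in 32.7% of 32851 windows of all genes, at a median GC content of 63.0% in the members' windows and 52.4% in all windows. The AP-1 motif TGANTCA was in 3 (8.82%, against 6.75% of all), the TEAD motif GGAATG in 2 (5.88%, against 12.6%) and the TATA motif TATAAA in 3 (8.82%, against 12.4%). A match describes the letters and not the binding of a factor.

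Most members had higher levels in the KO libraries, while Adam12 alone passed the test. Of 50 members, 44 had a positive log2 fold change, against 49.3% of all 17086 genes tested, and the median over the members was 0.99, against -0.01 over all genes. The edgeR quasi-likelihood test, with Benjamini-Hochberg adjustment over all tested genes, called 1 of 50 members higher (2.0%), where it called 0.591% of all genes higher. It called 0 members lower, where it called 0.421% of all genes lower and 1.01% in either direction. At an unadjusted p below 0.05, 27 members were higher and 1, Timp3, was lower, against 17.5% and 11.8% of all genes. DESeq2 called 23 higher (11.7% of all genes) and 1 lower (5.65%), and limma-voom 0 in either direction (0.392% and 0.328%). Library totals in place of TMM gave 0 and 0 (0.667% and 0.293% of all genes), no filter on low counts 2 and 0 (1.41% and 1.31%), and a filter of 10 counts in 3 libraries 1 and 0 (0.589% and 0.42%). Without KO 146 the counts were 19 higher and 1 lower (10.5% and 6.62% of all genes), and without KO 148 they were 24 and 0 (12.9% and 5.4%). Without KO 147 they were 0 and 0 (0.00574% of all genes in each direction). They were also 0 and 0 without CTRL 157 (0.00569% in each), CTRL 162 (0.0114% and 0.0057%) or CTRL 163 (0.0284% in each).

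All 3 KO libraries lay above all 3 CTRL libraries in 30 of 50 members (60.0%), against 21.9% of all genes, and below them in 1 (2.0%), against 19.6%. In 27 of the 50 members (54.0%) the KO libraries lay above the CTRL libraries in the order 146, 147, 148, against 15.5% of all genes. KO 148 was then nearest to the CTRL libraries. Where all KO libraries lay above, 27 of 30 members and 2649 of 3738 genes overall had this order. The podocyte, endothelial and mesangial marker means had the same order. The families differed in their medians, at 0.25 for Adam, 1.35 for Adamts, 1.09 for Adamtsl, 1.27 for Mmp and 0.15 for Timp genes.

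**Figure D1:**
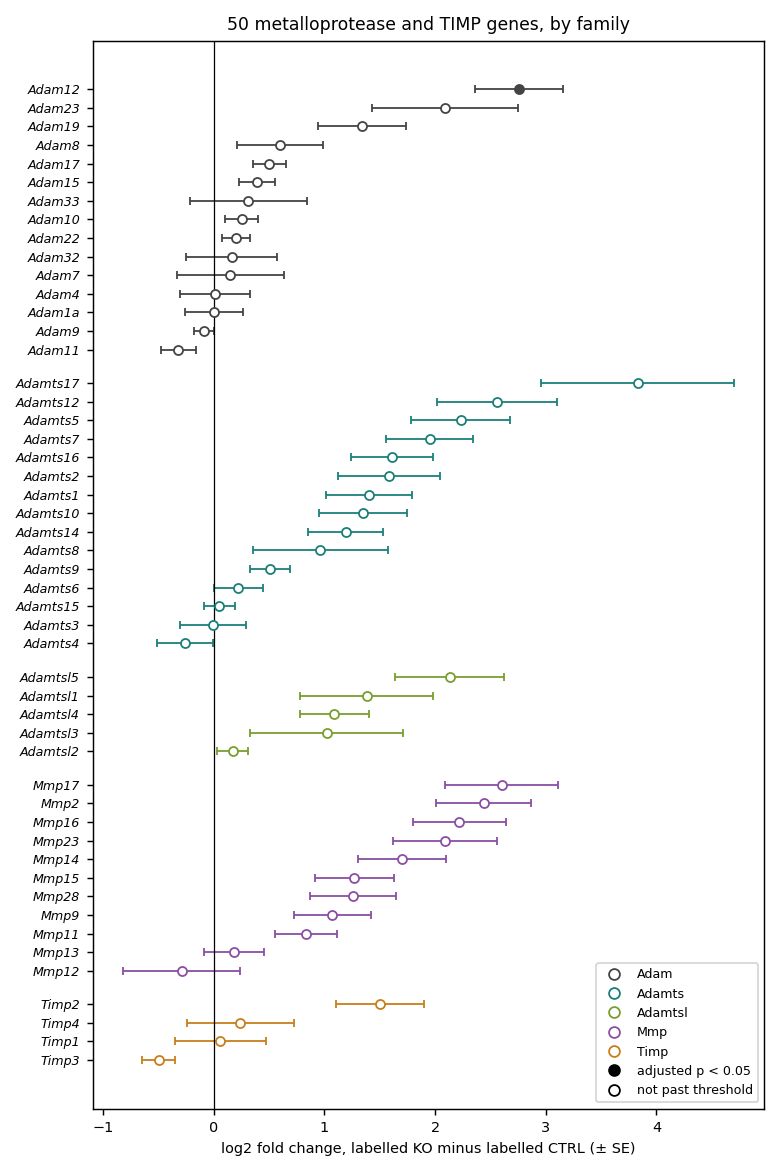
Log2 fold change of KO over CTRL libraries with its SE for the 50 members, grouped by family and fitted with edgeR to 3 libraries a group. Adam12, the filled point, is past an adjusted p of 0.05, and 6 members have values below 0.

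Among the 15 Adam genes, Adam12 rose and the other 14 did not pass the edgeR test, which called 1.01% of all genes. Adam12, also known as meltrin alpha, is a protease with a membrane and a secreted form that cuts insulin-like growth factor binding proteins and HB-EGF. Its gene (ENSMUSG00000054555) had 1377, 461 and 380 counts in KO 146, 147 and 148, and 86, 75 and 105 counts in CTRL 157, 162 and 163. These are 23.3, 11.1 and 8.36 CPM in the KO libraries, against 2.0, 1.97 and 2.37 CPM in the CTRL libraries. Every KO library was over 3 times the highest CTRL library. The log2 fold change was 2.76 (SE 0.40, edgeR adjusted p = 0.0405, range over 13 alternatives 5.61e-10 to 0.23). The call was lost with library totals in place of TMM scaling, with limma-voom, with no filter on low counts, and without KO 147 or any CTRL library, while the value stayed between 1.40 and 3.02.

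Adam9, Adam10, Adam15 and Adam17 are membrane sheddases present in most tissues, and they were the most abundant Adam genes per length. Adam10, which releases Notch and cadherins, had 101.3, 72.4 and 69.6 CPM in the KO libraries, against 67.5, 67.2 and 69.4 CPM in the CTRL libraries. The groups did not overlap, although KO 148 lay within 0.2 CPM of CTRL 163, with a log2 fold change of 0.25 (SE 0.15, edgeR adjusted p = 0.30). Adam17, the enzyme that releases tumour necrosis factor and ligands of the EGF receptor, had 54.0, 39.8 and 36.8 CPM in the KO libraries, against 31.4, 30.5 and 30.8 CPM in the CTRL libraries. The groups did not overlap, and the log2 fold change was 0.50 (SE 0.15, edgeR adjusted p = 0.0923). It was called by DESeq2 (adjusted p = 0.0419) and by edgeR without KO 146 (adjusted p = 0.0167) or KO 148 (adjusted p = 0.0335), and was 0.02 with the endothelial and mesangial covariate. The level of Adam10 over that of Adam17, per length, was 2.71 ± 0.0558 in the KO libraries and 3.21 ± 0.0725 in the CTRL libraries (SD, n = 3 each, exact permutation p = 0.1, the smallest that 3 against 3 allows). Adam9 had 107.9, 95.5 and 99.0 CPM in the KO libraries, against 112.4, 100.5 and 109.6 CPM in the CTRL libraries, and the groups overlapped (-0.09, SE 0.09, edgeR adjusted p = 0.508). Adam15 had 69.1, 50.2 and 45.7 CPM in the KO libraries, against 39.7, 43.6 and 42.9 CPM in the CTRL libraries (0.39, SE 0.16, edgeR adjusted p = 0.164). An antisense gene overlaps 20.6% of the exonic bases of Adam15, and whether counting used strand remains not given in the sources used here. The same limit holds for Adam19 (15.0% of exonic bases overlapped on the opposite strand), Adamts9 (12.0%), Mmp28 (12.0%) and Adamts8 (10.6%).

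The other Adam genes were low. Adam19, or meltrin beta, which cuts neuregulins, had 9.47, 3.96 and 3.59 CPM in the KO libraries and 1.88 to 2.56 CPM in the CTRL libraries (1.34, SE 0.40, edgeR adjusted p = 0.0929). Adam11, Adam22 and Adam23 lack the catalytic zinc site and act as adhesion proteins and receptors in the nervous system. Adam23 had 2.05, 1.06 and 0.484 CPM in the KO libraries, against 0.116, 0.473 and 0.271 CPM in the CTRL libraries, so that KO 148 barely exceeded CTRL 162 (2.09, SE 0.66, edgeR adjusted p = 0.101). Adam11 was on the lower side, with 4.64, 4.71 and 6.05 CPM in the KO libraries, against 6.74, 6.85 and 5.67 CPM in the CTRL libraries (-0.32, SE 0.16, edgeR adjusted p = 0.236). Adam22 had values of 5.57 to 6.21 CPM in the KO libraries and 4.83 to 5.54 CPM in the CTRL libraries. Adam8, a protease of leukocytes, Adam33, and the testis or epididymis genes Adam4, Adam7 and Adam32 stayed under 1 CPM in every library. Adam1a, a sperm protein gene, had 1.15 to 1.92 CPM, and 99.0% of its exonic bases overlap other genes, so its reads cannot be assigned to it with certainty.

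The Adamts family held the largest difference of any member. Adamts17, whose human counterpart is mutated in a Weill-Marchesani-like syndrome of the fibrillin microfibrils, had 17.1, 7.51 and 4.75 CPM in the KO libraries, against 0.0465, 0.893 and 1.13 CPM in the CTRL libraries. CTRL 157 stood apart with 2 counts, where CTRL 162 and 163 had 34 and 50. The log2 fold change was 3.83 (SE 0.87, edgeR adjusted p = 0.0755). It was 3.27 without CTRL 157 and ranged from 2.08 to 4.52 over all 14 fits, of which 2 called it.

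**Figure D2:**
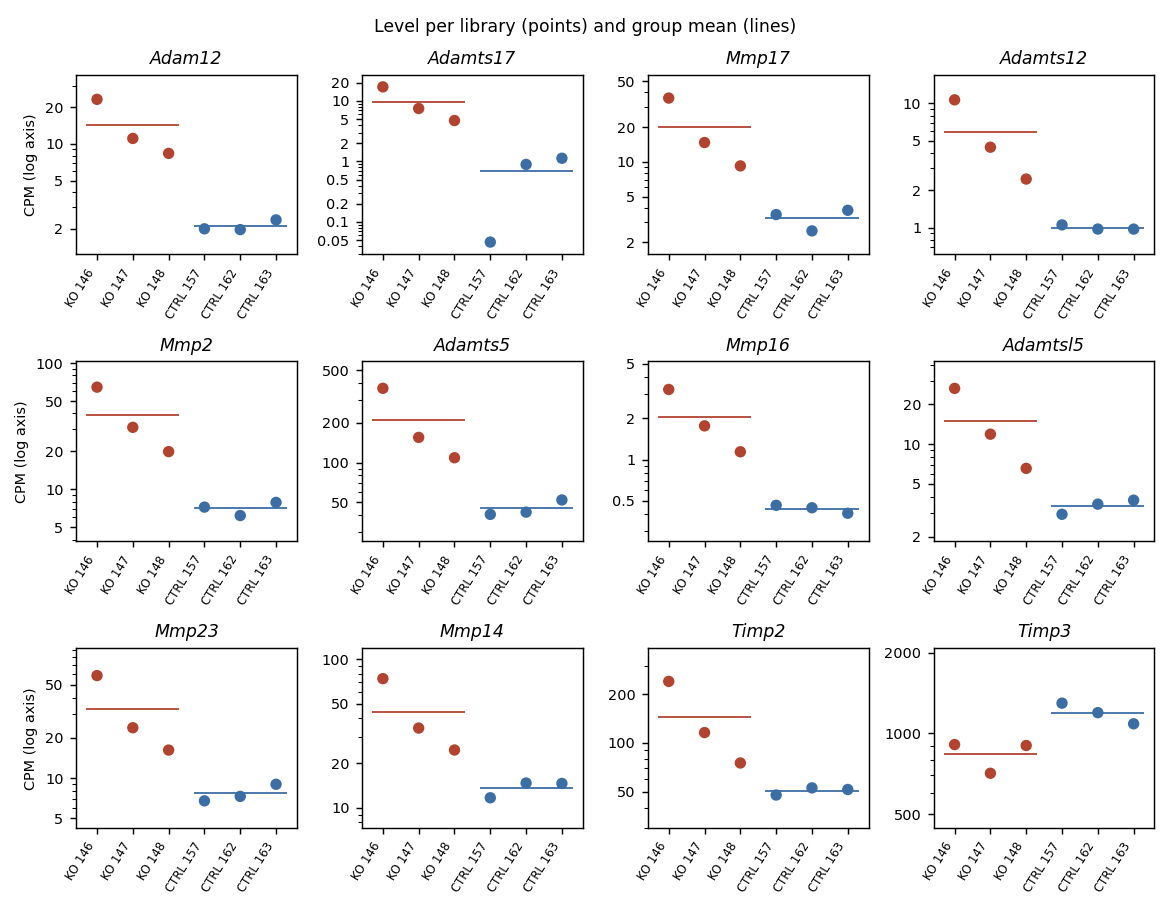
CPM on a log axis for 12 members in each library, labelled KO on the left and labelled CTRL on the right, with group means as lines. In 11 of the 12 KO 146 is highest and KO 148 is the lowest KO library above every CTRL library, and in Timp3 all KO libraries lie below.

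The proteoglycanases Adamts1, Adamts4, Adamts5, Adamts8, Adamts9 and Adamts15, which cut aggrecan and versican, did not move as a block. Adamts5 was the most abundant by counts, with 366.0, 155.3 and 108.9 CPM in the KO libraries, against 40.5, 42.1 and 52.1 CPM in the CTRL libraries. The lowest KO library held more than 2 times the highest CTRL library (2.23, SE 0.45, edgeR adjusted p = 0.0729). Adamts1 had 156.0, 70.6 and 52.2 CPM in the KO libraries, against 36.4, 30.7 and 38.3 CPM in the CTRL libraries (1.40, SE 0.39, edgeR adjusted p = 0.0845). The order of the 2 genes differed between the groups. Per length, Adamts5 over Adamts1 was 1.15, 1.08 and 1.03 in the KO libraries, against 0.547, 0.675 and 0.668 in the CTRL libraries, a ratio that scaling between libraries cannot alter (exact permutation p = 0.1, the smallest possible). Adamts9 had 22.6, 14.9 and 15.4 CPM in the KO libraries and 11.6 to 13.3 CPM in the CTRL libraries (0.51, SE 0.18, edgeR adjusted p = 0.123). Adamts15 overlapped between the groups at 13.8 to 15.2 CPM in the KO libraries and 11.8 to 16.4 CPM in the CTRL libraries (0.05, SE 0.14). Adamts8 stood above the CTRL libraries in KO 146 alone, with 2.97, 0.70 and 0.682 CPM in the KO libraries, against 0.674 to 0.813 CPM in the CTRL libraries. Adamts4 was at 0.241 to 0.305 CPM in the KO libraries and 0.302 to 0.341 CPM in the CTRL libraries.

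The procollagen N-proteinases Adamts2, Adamts3 and Adamts14, which trim fibrillar procollagens, were low. Adamts2 had 5.08, 2.65 and 1.63 CPM in the KO libraries, against 0.697, 1.26 and 1.20 CPM in the CTRL libraries (1.58, SE 0.46, edgeR adjusted p = 0.089). Adamts14 had 0.898, 0.628 and 0.44 CPM in the KO libraries and 0.249 to 0.341 CPM in the CTRL libraries (1.19, SE 0.34, edgeR adjusted p = 0.0859), while Adamts3 overlapped, with a value of -0.01. Adamts7 and Adamts12, which cut cartilage oligomeric matrix protein, were separated between the groups. Adamts12 had 10.7, 4.44 and 2.46 CPM in the KO libraries, against 1.05, 0.972 and 0.971 CPM in the CTRL libraries (2.56, SE 0.54, edgeR adjusted p = 0.0753). Adamts7 had 18.1, 8.33 and 6.69 CPM in the KO libraries and 2.63 to 3.23 CPM in the CTRL libraries (1.95, SE 0.39, edgeR adjusted p = 0.0728). Adamts10, a fibrillin-binding relative of Adamts6, had 29.4, 12.5 and 10.1 CPM in the KO libraries and 6.09 to 7.56 CPM in the CTRL libraries (1.35, SE 0.40). Adamts6 itself overlapped, at 3.61 to 4.57 CPM in the KO libraries and 2.65 to 4.28 CPM in the CTRL libraries. Adamts16, a gene linked to blood pressure in rats, had 38.8, 18.2 and 14.5 CPM in the KO libraries, against 7.51, 8.64 and 7.32 CPM in the CTRL libraries (1.61, SE 0.37, edgeR adjusted p = 0.0755).

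Of the ADAMTS-like genes, Adamtsl5 differed most. It had 26.4, 11.9 and 6.56 CPM in the KO libraries, against 2.95, 3.52 and 3.77 CPM in the CTRL libraries (2.13, SE 0.49, edgeR adjusted p = 0.0755). Adamtsl4, which binds fibrillin-1 and is needed for the suspension of the lens, had 4.32, 2.80 and 1.96 CPM in the KO libraries and 1.23 to 1.52 CPM in the CTRL libraries (1.09, SE 0.31, edgeR adjusted p = 0.0856). Adamtsl2, another fibrillin-binding protein, was nearly level at 12.6, 14.3 and 15.1 CPM in the KO libraries, against 11.3, 11.5 and 14.6 CPM in the CTRL libraries (0.17, SE 0.14, edgeR adjusted p = 0.449). Adamtsl1 rested on KO 146, with 8.64, 2.12 and 2.09 CPM in the KO libraries and 1.30 to 2.08 CPM in the CTRL libraries. Its log2 fold change was 1.38 (SE 0.60) with all libraries, 0.34 without KO 146, and -0.80 and -0.74 with the proximal tubule and the endothelial and mesangial covariate. Adamtsl3 was at 0.11 to 0.424 CPM in the KO libraries and 0.0678 to 0.263 CPM in the CTRL libraries.

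In 9 of the 11 Mmp genes all KO libraries lay above all CTRL libraries, against 21.9% of all genes. The edgeR test called 0 of the 11, against 1.01% of all genes in either direction. At an unadjusted p below 0.05, 9 of the 11 were higher and 0 lower, against 17.5% and 11.8% of all genes. Mmp2, or gelatinase A, which degrades type IV collagen, had 3808, 1283 and 903 counts in KO 146, 147 and 148, and 311, 236 and 349 counts in CTRL 157, 162 and 163. These are 64.5, 31.0 and 19.9 CPM in the KO libraries, against 7.23, 6.20 and 7.88 CPM in the CTRL libraries. The lowest KO library was more than 2 times the highest CTRL library (2.44, SE 0.43, edgeR adjusted p = 0.0614). Mmp14, the membrane-type protease that activates the Mmp2 proenzyme, had 73.9, 34.4 and 24.5 CPM in the KO libraries, against 11.7, 14.7 and 14.6 CPM in the CTRL libraries (1.70, SE 0.40, edgeR adjusted p = 0.0755). The transmembrane relatives Mmp15 and Mmp16 and the lipid-anchored Mmp17 were separated too. Mmp17 had 35.7, 14.7 and 9.22 CPM in the KO libraries, against 3.49, 2.52 and 3.80 CPM in the CTRL libraries (2.6, SE 0.51, edgeR adjusted p = 0.0725). Mmp16 had 3.24, 1.76 and 1.14 CPM in the KO libraries, against 0.465, 0.446 and 0.407 CPM in the CTRL libraries (2.22, SE 0.42, edgeR adjusted p = 0.0668). Mmp15 had 15.6, 9.73 and 5.48 CPM in the KO libraries and 4.09 to 4.54 CPM in the CTRL libraries (1.27, SE 0.36, edgeR adjusted p = 0.0849).

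Mmp23, a membrane protease whose shed form has an unusual cysteine-rich domain, had 58.4, 23.8 and 16.2 CPM in the KO libraries, against 6.76, 7.30 and 8.99 CPM in the CTRL libraries (2.09, SE 0.47, edgeR adjusted p = 0.0755). Per length it was the most abundant Mmp gene, at 14.0 ± 9.62 FPKM in the KO libraries and 3.28 ± 0.497 FPKM in the CTRL libraries (SD, n = 3 each), where FPKM is CPM per kilobase of exon. Mmp11 and Mmp28, secreted enzymes with a furin cleavage site, had values of 0.83 (SE 0.28) and 1.26 (SE 0.39). Mmp9, or gelatinase B, was near the detection limit, with 22, 23 and 28 counts in the KO libraries and 11, 12 and 7 counts in the CTRL libraries. It was 0.373, 0.555 and 0.616 CPM in the KO libraries, against 0.256, 0.315 and 0.158 CPM in the CTRL libraries (1.07, SE 0.35, edgeR adjusted p = 0.107). Its counts are too close to rank the KO libraries. The collagenase Mmp13 and the macrophage elastase Mmp12 overlapped between the groups, with values of 0.18 (SE 0.27) and -0.29 (SE 0.53). The macrophage marker mean also overlapped, at 2.80 to 3.22 log2 CPM in the KO libraries and 2.82 to 2.99 in the CTRL libraries.

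None of the 4 inhibitors passed the edgeR test, against 1.01% of all genes in either direction. At an unadjusted p below 0.05, 1 was higher (Timp2) and 1 lower (Timp3), against 17.5% and 11.8% of all genes. DESeq2 called both (11.7% of all genes higher and 5.65% lower). Timp3, which binds to the matrix and inhibits ADAM17 and the aggrecanases as well as MMPs, was the most abundant of all 50 members. It had 909.4, 711.2 and 902.0 CPM in the KO libraries, against 1296.5, 1195 and 1086.5 CPM in the CTRL libraries. It was the only member with all KO libraries below all CTRL libraries, and its KO libraries did not follow the order 146, 147, 148. The log2 fold change was -0.50 (SE 0.15, edgeR adjusted p = 0.0894, range over alternatives 0.0117 to 0.287), and it was negative in all 14 fits, at -0.57 to -0.36. Exons of Syn3 overlap 21.3% of the exonic bases of Timp3. All 20 proximal tubule and all 13 distal markers tested also had negative values, with medians of -0.53 and -0.34.

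Timp2, which inhibits MMPs and also links Mmp2 proenzyme to Mmp14 at the cell surface, had 239.6, 115.9 and 75.3 CPM in the KO libraries, against 47.8, 52.9 and 51.7 CPM in the CTRL libraries (1.50, SE 0.40, edgeR adjusted p = 0.0798). Timp1 and Timp4 were barely detected. Timp1, an inhibitor induced by injury, had 24, 10 and 8 counts in the KO libraries and 12, 7 and 15 counts in the CTRL libraries. Timp4 had 16, 4 and 12 counts in the KO libraries and 10, 4 and 9 counts in the CTRL libraries. At this depth no difference was detectable in either gene (0.06, SE 0.41, and 0.24, SE 0.48).

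**Figure D3:**
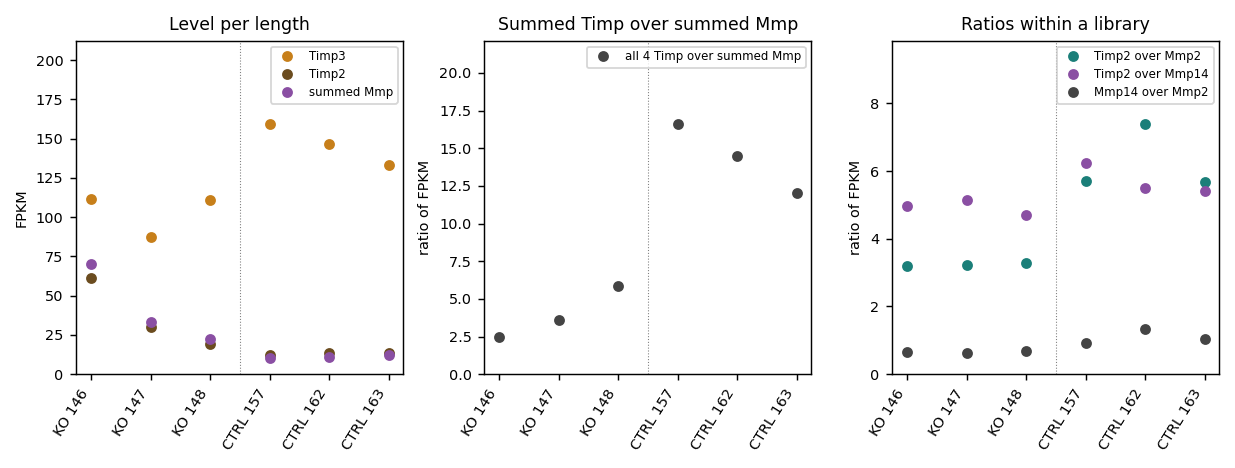
FPKM of Timp3, Timp2 and the summed 11 Mmp genes, and ratios of FPKM within each library, labelled KO left of labelled CTRL. The ratio of summed Timp to summed Mmp is 2.48 to 5.83 in the KO libraries and 12.0 to 16.6 in the CTRL libraries.

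Set per length within each library, all 3 KO libraries had a lower ratio of Timp to Mmp transcripts than all 3 CTRL libraries. Such a ratio removes scaling between libraries but not their cell content, whose part in it was not tested. The Timp sum itself overlapped between the groups, at 173.7, 117.4 and 130.3 FPKM in KO 146, 147 and 148, and 171.8, 160.6 and 147.1 FPKM in CTRL 157, 162 and 163 (exact permutation p = 0.4). The Mmp sum did not, at 70.1, 32.9 and 22.4 FPKM in the KO libraries, against 10.3, 11.0 and 12.2 FPKM in the CTRL libraries (exact permutation p = 0.1). The 4 Timp genes summed to 2.48, 3.57 and 5.83 times the 11 Mmp genes in KO 146, 147 and 148, and to 16.6, 14.5 and 12.0 times in CTRL 157, 162 and 163 (exact permutation p = 0.1, the smallest possible). Timp3 made up 64.3%, 74.4% and 85.0% of the Timp sum in the KO libraries, against 92.7%, 91.4% and 90.7% in the CTRL libraries. Without Timp3 the ratio was 0.891 ± 0.0204 in the KO libraries and 1.20 ± 0.0677 in the CTRL libraries (SD, n = 3 each, exact permutation p = 0.1). For transcripts of the genes whose proteins form the activation complex, Timp2 over Mmp2 was 3.21, 3.24 and 3.28 in the KO libraries. It was 5.72, 7.39 and 5.68 in the CTRL libraries. Protein was not measured. Timp2 over Mmp14 was 4.94 ± 0.227 in the KO libraries and 5.72 ± 0.445 in the CTRL libraries, and Mmp14 over Mmp2 was 0.658 ± 0.0355 in the KO libraries and 1.10 ± 0.219 in the CTRL libraries (SD, n = 3 each, exact permutation p = 0.1 for each). The Timp2 to Mmp2 ratio thus varied by less than 0.1 among KO libraries in which Mmp2 itself spanned 19.9 to 64.5 CPM. Of 21 sums, shares and ratios compared in all, 16 had the smallest p, and adjusted over the 21 by Benjamini-Hochberg each of these was 0.131.

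Set against the endothelial and mesangial marker mean of the same library, the members differed in whether the KO libraries lay above, among or below the CTRL libraries. On this scale, log2 CPM minus the mean of the 2 marker means, 9 of 50 members had all KO libraries above all CTRL libraries (18.0%), against 1.21% of all genes, and 24 had them below (48.0%), against 84.5%. The 9 were Adam12, Adamts5, Adamts12, Adamts17, Adamtsl5, Mmp2, Mmp16, Mmp17 and Mmp23. Adam12 lay at -2.64, -2.39 and -2.27 in KO 146, 147 and 148, and at -3.56, -3.68 and -3.40 in CTRL 157, 162 and 163. Mmp2 lay at -1.17, -0.91 and -1.02 in the KO libraries, against -1.73, -2.04 and -1.68 in the CTRL libraries. For both genes the KO libraries were close together, KO 146 included. Mmp14 overlapped at -0.97 to -0.72 in the KO libraries and -1.03 to -0.80 in the CTRL libraries, and Timp2 at 0.72 to 0.99 in the KO libraries and 0.99 to 1.04 in the CTRL libraries. In Adam10, Adam17 and Timp3 every KO library lay below every CTRL library. Relative to the podocyte marker mean, 7 members lay above (0.55% of all genes), those 9 without Adamtsl5 and Mmp16, and 30 lay below (89.8% of all genes). The margin was narrow for Mmp23, at -2.41 in KO 148 against -2.42 in CTRL 163.

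**Figure D4:**
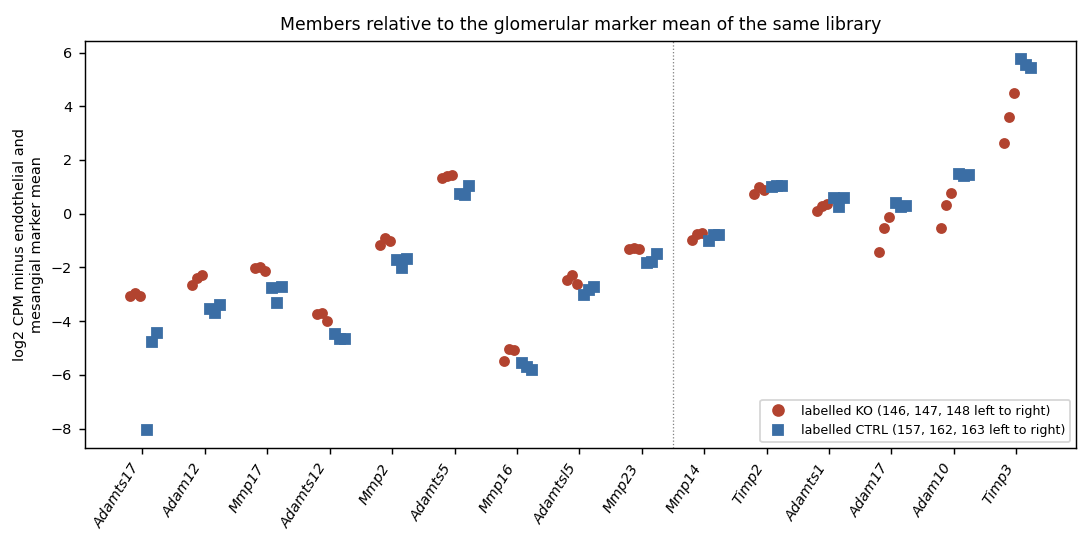
Log2 CPM minus the mean of the endothelial and mesangial marker means for 15 members, labelled KO as circles and labelled CTRL as squares. In the 9 members left of the dotted line every KO library lies above every CTRL library.

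With that marker mean as a covariate in edgeR, 3 members were called higher (1.45% of all genes) and 0 lower (0.386%), where 3 members had an unadjusted p below 0.05 in that direction (6.4% of all genes). Adam12 had a value of 1.42 (SE 0.17, edgeR adjusted p = 0.00108), Mmp2 of 0.94 (SE 0.16, edgeR adjusted p = 0.00985) and Adamts5 of 0.63 (SE 0.14, edgeR adjusted p = 0.0446). Some markers of cell types were called higher in the same fit, and the mesangial ones among them are part of the covariate itself. Of 7 interstitial fibroblast markers these were Col1a1 (1.70, edgeR adjusted p = 0.0002), Col3a1 (1.59, edgeR adjusted p = 6.34e-05) and Col1a2 (0.61, edgeR adjusted p = 0.0196), and of 14 mesangial markers Pdgfrb (0.78, edgeR adjusted p = 0.00248) and Sfrp2 (0.83, edgeR adjusted p = 0.00123), while Rgs5 was called lower (-1.32, edgeR adjusted p = 0.00248). Of 20 podocyte markers only Sema3g (1.04) was called higher, with a list median of 0.3. Of 6 parietal markers only Ncam1 (1.22) was, with a list median of 0.04. The fibroblast marker mean with no covariate was 3.26, 3.22 and 2.86 log2 CPM in the KO libraries and 1.90 to 2.24 in the CTRL libraries. The part of these cells in the values of the members was not tested. With the proximal tubule mean as the covariate, Adam12 (1.40, edgeR adjusted p = 0.00333) and Mmp2 (0.94, edgeR adjusted p = 0.049) were called (1.18% of all genes called higher), and Adamts5 was at 0.61 (edgeR adjusted p = 0.0513). In each of these fits 30 of 50 members were positive, with a median of 0.11, and the proximal tubule fit called 0 lower (0.328% of all genes), where 4 had an unadjusted p below 0.05 in that direction (5.96%). Timp2 had 0.02 and Adamts1 -0.02 in each, against 1.50 and 1.40 with no covariate, and Timp3 stayed at -0.57. Since the marker means separate the groups, group and marker level are only in part distinguishable in 6 libraries.

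**Figure D5:**
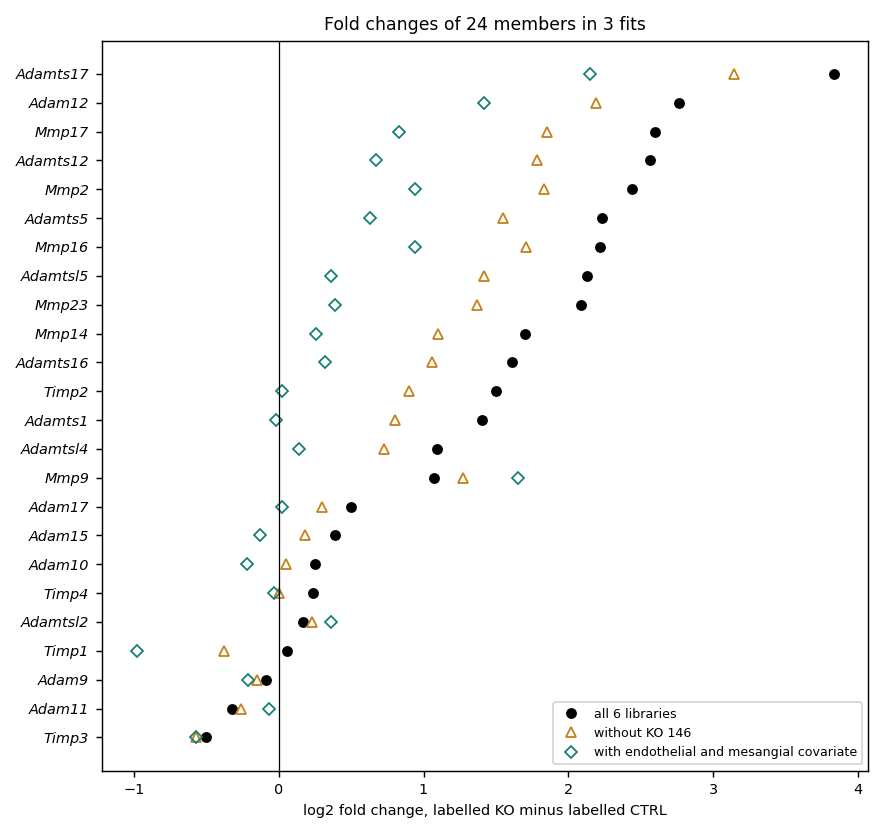
Log2 fold change of KO over CTRL libraries for the 24 members of the naming rule in 3 edgeR fits: all libraries, without KO 146, and with the endothelial and mesangial covariate. Adam12 has 2.76, 2.19 and 1.42, and Timp2 has 1.50, 0.90 and 0.02.

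Other genes of metalloprotease biology were taken from 6 lists with 78 genes, of which 65 were tested, and edgeR called 0 of them in either direction (1.01% of all genes). DESeq2 called 20 higher and 5 lower (11.7% and 5.65% of all genes), and limma-voom 0 in either direction (0.392% and 0.328%). At an unadjusted p below 0.05, 23 were higher and 7 lower, against 17.5% and 11.8% of all genes. In the order of the lists that follows, 3, 6, 7, 4, 1 and 2 were higher and 0, 1, 0, 2, 2 and 2 lower. Among 12 tested regulators of sheddases and proprotein convertases, 10 were positive with a median of 0.19. Tspan15 and Tspan17, tetraspanins that escort ADAM10, had 1.35 (SE 0.33) and 1.08 (SE 0.28), and Rhbdf2, the iRhom that matures ADAM17, had 0.61 (SE 0.22). Among 16 sheddase substrates 10 were positive, with a median of 0.21, led by the endothelial cadherin Cdh5 at 1.95 (SE 0.44), the interleukin-6 receptor Il6ra at 1.79 (SE 0.46) and the TNF receptor Tnfrsf1a at 0.68 (SE 0.19). Among 15 ADAMTS substrates and partners 12 were positive, with a median of 0.97. The basement membrane linkers Nid1 and Nid2 had 2.10 (SE 0.41) and 1.55 (SE 0.33), and the proteoglycan Bgn had 1.84 (SE 0.39). The proteoglycan Vcan was low, at 0.575 CPM in the KO libraries and 0.477 CPM in the CTRL libraries, and Acan was below the filter.

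The plasminogen system, which activates several MMPs, was split. Of 7 tested genes 4 were positive, among them Serpine2, an inhibitor of thrombin and plasminogen activators, at 2.12 (SE 0.41), the activator Plat at 2.19 (SE 0.47) and the urokinase receptor Plaur at 1.47 (SE 0.35). The naming rule selected none of the 3 negative genes, of which 2 had an unadjusted edgeR p below 0.05. DESeq2 called 4 of the 7 higher and 1 lower (11.7% and 5.65% of all genes). Of 7 other inhibitors and inducers 2 were positive, and Reck, a membrane inhibitor of MMPs, had 12.9 CPM in the KO libraries and 5.86 CPM in the CTRL libraries (1.14, SE 0.38). Pzp, a trap-type inhibitor, had 17.0 CPM in the KO libraries and 40.5 CPM in the CTRL libraries (-1.26, SE 0.32), and Spock3, a testican, had -0.75 (SE 0.22). Of 8 astacins, pappalysins and enhancers 2 were positive. Bmp1, the procollagen C-proteinase, had 20.6 CPM in the KO libraries and 5.11 CPM in the CTRL libraries (2.01, SE 0.43). The brush border protease Mep1a had 620.0 CPM in the KO libraries and 929.0 CPM in the CTRL libraries (-0.58, SE 0.18), and Pappa2, which cuts IGF binding proteins, had 1.42 CPM in the KO libraries and 3.08 CPM in the CTRL libraries (-1.11, SE 0.19). Apart from Vcan and Acan, which the naming rule did not select, the edgeR adjusted p values of the genes named from these lists lay between 0.0594 and 0.126.

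The 33 genes not kept included 11 with no count in any library, most of them Adam genes. Just outside the threshold, Adam5 had 14, 10 and 9 counts in the KO libraries and 4, 2 and 5 in the CTRL libraries, and the leukocyte collagenase Mmp8 had at most 7 counts. Just inside it, Adamtsl3 had 25, 10 and 5 counts in the KO libraries and 3, 10 and 3 in the CTRL libraries, and Adam7 had 12, 5 and 19 in the KO libraries and 8, 8 and 12 in the CTRL libraries. Of the 50 kept, 38 had at least 10 counts in all 6 libraries, and 0 reached the threshold through KO libraries alone.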

How the data were processed

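Total RNA was taken from isolated glomeruli with a column kit, per the labels. The submitters' processing notes list the human build GRCh37, although the identifiers are mouse, and the tools STAR 2.6.0, HTSeq 0.11.1, fastp 0.19.5 and DESeq2. The authors deposited raw counts per gene, 1 file per library. 5 closing lines that name no gene were left out, among them 22.51% to 29.63% of records that aligned to several places. Of the identifiers, 54809 were named from GENCODE M21 (GRCm38), which also gave exonic lengths. Replicates of a group differed beyond sampling noise, and more so among KO libraries. Chi-square per degree of freedom was 16.71 to 18.41 between CTRL libraries and 27.09 between KO 147 and 148. For KO 146 it was 175.65 against KO 147 and 298.59 against KO 148. Nothing says whether the spread is technical.

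The main test was the robust quasi-likelihood F test of edgeR 4.0.16 (R 4.3.3) with TMM scaling, filterByExpr with a minimum count of 10 and no covariate, called at a Benjamini-Hochberg adjusted p under 0.05 over all genes. It was also run on simulated counts with the same dispersion for every gene, which does not cover the spread among these replicates. SE is the absolute log2 fold change over the square root of F. Log2 CPM used a prior count of 2. Alternatives used DESeq2 1.42.0, limma 3.58.1, other scaling and filters, marker covariates and each library left out. Single values were compared by two-sided exact permutation. The members and lists were chosen with earlier results of these data known. Full statistics were set by rule for called members, the 8 largest rises and 5 largest falls (minimum mean of 1 CPM in either group). The rule also took the 3 most abundant per length of each family, 12 members listed by name, and 3 genes of each of the 6 other lists. Only 3 falls met the rule. Outside the rule, Adam19, Adam23, Adamts2, Adamts7, Adamts9, Adamts14 and Mmp15 are also given with an adjusted p. In all of these the KO libraries lay above the CTRL libraries. The remaining members are given by range or with fewer statistics.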

Additional observations from a re-analysis of the deposited data

How the results depend on the processing

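The number of called genes, 173 with all 6 libraries, ran from 2 to 3211 with a library left out. It was 2974, 2 and 3211 without KO 146, 147 and 148, and 2, 3 and 10 without CTRL 157, 162 and 163. DESeq2 called 2959 genes, edgeR with no filter on low counts 960 and with the endothelial and mesangial covariate 313. Members called higher numbered 1 and ran from 0 to 24 with a library left out. They were 0 with library totals in place of TMM, 0 with limma-voom, 23 with DESeq2, 2 with no filter (Mmp16 and Adamtsl4), 2 with the proximal tubule covariate and 3 with the endothelial and mesangial covariate. Members called lower numbered 0, and 1 (Timp3) with DESeq2 and without KO 146, a range of 0 to 1. Of the 78 genes of the other lists, 65 were tested in the main fit and 0 were called. Calls on these lists numbered 25 with DESeq2, 5 with no filter, 2 with the proximal tubule and 3 with the endothelial and mesangial covariate. They ran from 0 to 26 with a library left out. The share of all genes called in each fit is given with the member counts above. Library totals moved the median of all genes by over 0.1, to 0.13. The cause of these shifts was not tested.

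Of 312 alternative values for 24 named members, 242 kept their direction and side of the threshold, 48 gained a call, 7 lost it and 15 turned in sign. With the proximal tubule covariate the turned values were -0.23 for Adam10, -0.14 for Adam15, -0.02 for Adamts1, -0.97 for Timp1 and -0.03 for Timp4. With the endothelial and mesangial covariate they were -0.22, -0.13, -0.02, -0.98 and -0.03. Adam9 was 0.05 with library totals. With a library left out Timp1 ranged from -0.38 (without KO 146) to 0.29, and was -0.15 without CTRL 162. Timp4 ranged from -0.02 (without CTRL 162) to 0.55, and was 0 without KO 146. No paired analysis was possible because the groups share no replicate numbers. With 4 to 28 counts per library, Timp1, Timp4 and Mmp9 are limited by depth.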

Other observations

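Adamts17 was counted 2 times in CTRL 157, where CTRL 162 and 163 had 34 and 50 counts and KO 148, the lowest KO library, had 216. The gene was chosen for this remark after its values were seen. Adamts16, Adamts12 and Adamts5 differed by less than 1.5 times among the 3 CTRL libraries.

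Neutrophil markers, which could accompany Mmp8 and Mmp9, summed to 9.83, 4.90 and 3.41 CPM over 9 genes in KO 146, 147 and 148, and to 2.53, 3.31 and 2.37 CPM in CTRL 157, 162 and 163. Of these 9 markers 4 passed the filter on low counts. Mmp9 had its lowest KO value, 0.373 CPM, in KO 146, the library with the highest neutrophil sum. Its counts of 22, 23 and 28 in KO 146, 147 and 148 are too close to rank these libraries, and a link to neutrophils was not tested.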
